A study of Mus musculus with 24 samples.

Results

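The PGC-1 coactivators and the factors that control mitochondrial biogenesis were examined in tibialis anterior (TA) muscle, as 10 listed genes out of the 55487 gene identifiers counted. They were chosen by name as members of this pathway, with earlier results of these data known. They are the coactivators Ppargc1a, Ppargc1b and Pprc1, the estrogen-related receptors Esrra, Esrrb and Esrrg, the nuclear respiratory factors Nrf1 and Gabpa, and the mitochondrial factors Tfam and Tfb2m. PGC-1 coactivators do not bind DNA themselves. They dock on transcription factors such as the estrogen-related receptors, NRF1 and GABP, which drive nuclear genes of oxidative metabolism, among them the factors that copy and transcribe mitochondrial DNA. In skeletal muscle PGC-1alpha, the product of Ppargc1a, is known as a regulator that responds to contraction and favors oxidative fibers.

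RNA was sequenced from 24 male, wild-type C57BL/6J mice of 5 to 7 weeks, 6 in each of 4 groups. Photobiomodulation therapy (PBMT) was near infrared light of 830 nm on the shaved lower limbs under anesthesia, with an irradiance of 25 mW/cm2 over 20 min, which gave 30 J/cm2. Control mice were shaved and anesthetized for 20 min without light. Sedentary mice did not run before dissection 24 h after PBMT, and fatigued mice ran on a treadmill to exhaustion before the TA was taken, the run starting 24 h after PBMT. Run times were not analysed here. They varied between mice, and the study reports longer runs with PBMT than without, so that light and length of the run cannot be told apart between the fatigued groups. Sequencing was done in 2 projects, with the 12 sedentary mice in one and the 12 fatigued mice in the other, so exercise and project cannot be told apart in any comparison of fatigued with sedentary muscle. Total counts per mouse ranged from 43271093 to 46904076 in sedentary controls, 46327516 to 52775844 in sedentary PBMT, 56792327 to 68726155 in fatigued controls and 53122528 to 68566029 in fatigued PBMT mice. Totals were higher with PBMT than without in sedentary muscle (two-sided exact permutation p = 0.00433, 6 mice a group).

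The labels were checked against marker genes. Fast fiber markers, which should dominate TA, summed to 123120 ± 17879 CPM (the counts of a gene scaled to a common library total, SD, n = 6) in sedentary controls, against 878 ± 271 CPM for slow or oxidative fiber markers. Of 16 genes known to rise with acute exercise, 11 were higher in fatigued than in sedentary controls and none was lower, at an adjusted p under 0.05 in edgeR (over all genes 9.1% and 9.49%). Nr4a3, an orphan nuclear receptor gene of the early exercise response, had 7.80 ± 5.46 CPM in sedentary controls and 209 ± 82.1 CPM in fatigued controls (SD, n = 6 each). Atf3, Hspa1b and Hspa1a, genes of the stress and heat shock response, were also among the 11, with log2 fold changes of 4.28, 4.54 and 4.51. In PBMT-treated mice 11 of the 16 were higher as well and none was lower (over all genes 14.1% and 12.7%), led by Atf3 at 5.00, Hspa1b at 4.07, Hspa1a at 4.00 and Nr4a3 at 3.95 on the log2 scale.

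A pair of libraries stood apart from their groups. Each mouse was set against the mean of its 5 group mates over all genes tested. The root mean square of these differences was 0.60 in log2 CPM for sedentary control replicate 4 and 0.61 for fatigued PBMT replicate 5. It ran from 0.37 to 0.49 in the other 22 mice. In sedentary control replicate 4 the 13 protein-coding transcripts of mitochondrial DNA summed to 25820 CPM, and in the other 23 mice they summed to between 95410 and 161860 CPM. Fatigued PBMT replicate 5 had the highest sum of the tendon markers, 494 CPM, and of the myeloid markers, 96.0 CPM. Both mice are included in what follows, and values without them are given where a call or a named value rests on them.

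The 10 genes differed widely in level. Per kilobase of merged exons, Esrra was the most abundant in sedentary controls at 27.5 ± 7.97 CPM/kb (SD, n = 6), followed by Tfb2m at 16.6 ± 1.38, Tfam at 11.2 ± 0.648, Ppargc1a at 5.68 ± 0.761 and Gabpa at 5.58 ± 0.588 CPM/kb. Below these came Esrrg at 3.43 ± 0.434, Ppargc1b at 2.21 ± 0.680, Pprc1 at 2.00 ± 0.304, Nrf1 at 1.01 ± 0.128 and Esrrb at 0.718 ± 0.156 CPM/kb. Neighbors in this order overlapped between mice for Ppargc1a and Gabpa, Esrrg and Ppargc1b, Ppargc1b and Pprc1, and Nrf1 and Esrrb. In the sedentary PBMT group the order was the same. In both fatigued groups Ppargc1a moved from the fourth place to the first, at 24.4 ± 11.1 CPM/kb in controls and 28.5 ± 13.05 CPM/kb with PBMT (SD, n = 6 each), where its range overlapped that of Esrra.

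**Figure D1:**
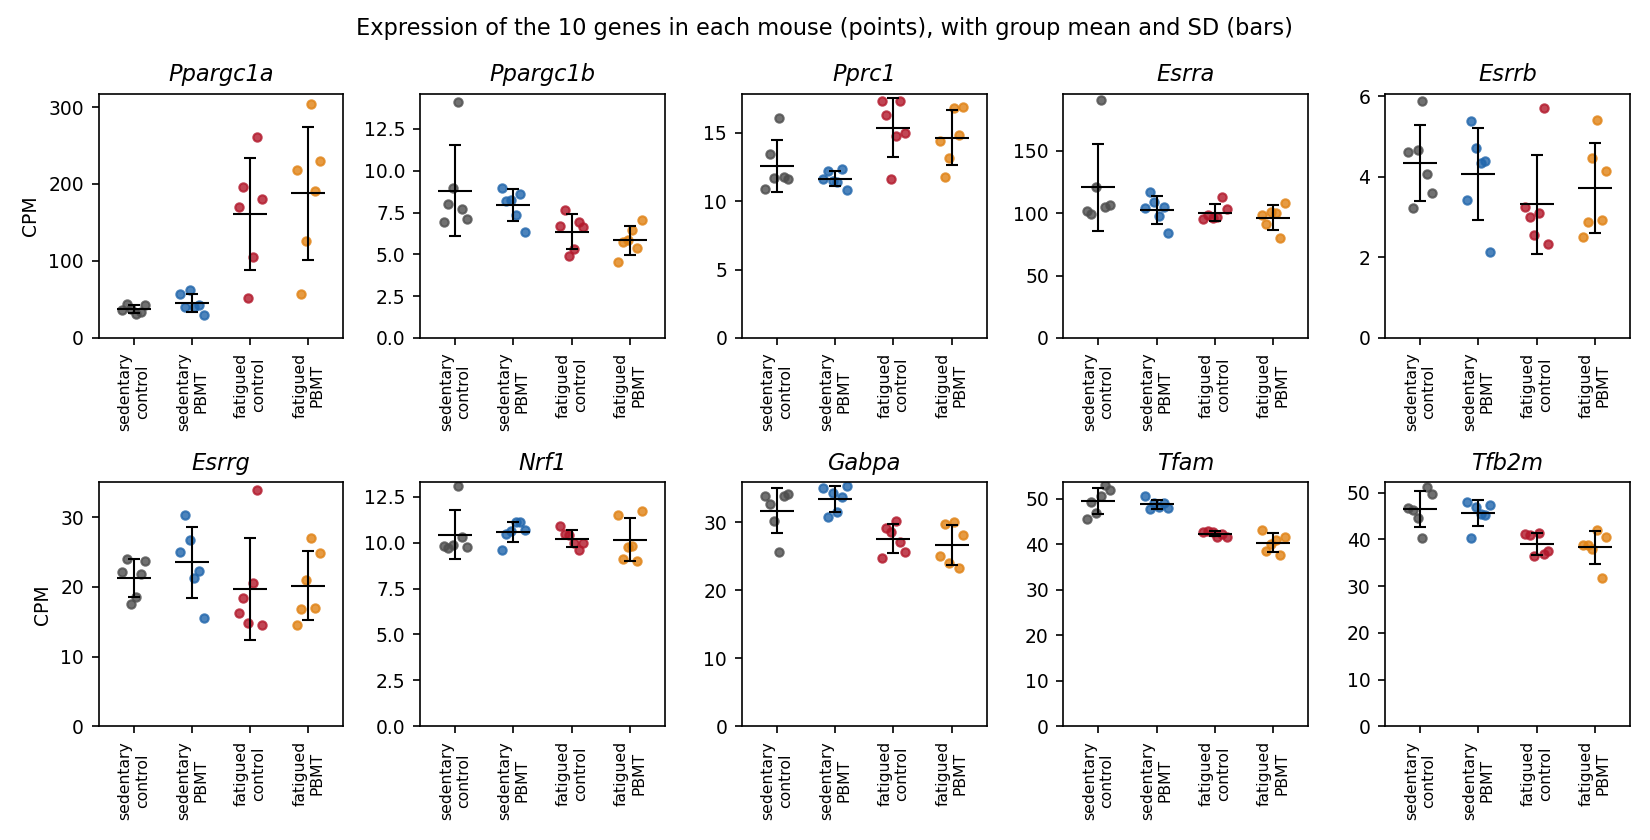
Expression of the 10 genes in CPM in each of the 24 mice (points, 6 per group), with the group mean (horizontal bar) and SD (error bar); each vertical axis starts at 0. Ppargc1a lies between 29.8 and 62.1 CPM in the sedentary mice and between 52.2 and 304 CPM in the fatigued mice.

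The comparison of fatigued with sedentary muscle asks how the genes stood after a run to exhaustion. In control mice, Ppargc1a was 4.29-fold higher in fatigued muscle (95% interval 2.62 to 7.03, n = 6 per group), and Ppargc1b, Tfam and Tfb2m were lower. Thus the gene of PGC-1alpha rose while those of a mitochondrial DNA packaging factor and a mitochondrial transcription factor fell. The gene of the paralog PGC-1beta passed as lower too, but that call was lost without any of 4 single mice, and without sedentary control replicate 4 its log2 fold change moved from -0.47 to -0.29. In PBMT-treated mice the same 4 genes passed the test in the same directions, with Pprc1 higher and Gabpa lower besides.

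Ppargc1a had 30.9 CPM in the lowest sedentary control, a median of 36.8 and 43.9 CPM in the highest. Fatigued controls had 52.2 CPM in the lowest mouse, a median of 175 and 261 CPM in the highest. All 6 fatigued controls lay above every sedentary control, and replicate 3 lay far below the other fatigued controls (next lowest 105 CPM). The log2 fold change was 2.10 (SE 0.343, edgeR adjusted p = 2.29e-04; exact permutation test of log2 CPM, two-sided p = 0.00216, the smallest that 6 mice against 6 allow). With PBMT, sedentary mice had 29.8 CPM in the lowest, a median of 41.3 and 62.1 CPM in the highest, and fatigued mice 57.7 CPM, a median of 204 and 304 CPM. Here 5 of the 6 fatigued mice lay above the highest sedentary mouse, and replicate 2, the lowest fatigued mouse, did not. The log2 fold change was 2.05 (SE 0.342, edgeR adjusted p = 1.61e-04; exact permutation two-sided p = 0.00433).

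The spread of Ppargc1a between mice was itself larger in fatigued muscle. Its highest mouse exceeded its lowest by 1.42-fold in sedentary controls and 2.08-fold with PBMT, but by 5.00-fold in fatigued controls and 5.27-fold in fatigued PBMT mice. The SD of its log2 CPM was 0.19 and 0.39 in the sedentary groups and 0.83 and 0.86 in the fatigued groups. In fatigued controls this SD was above that of 95.5% of all genes tested, and in fatigued PBMT mice above that of 94.5%. No test of this difference in spread was made. Tfam varied least, with SDs of log2 CPM of 0.08, 0.03, 0.02 and 0.07 among sedentary mice without and with PBMT and fatigued mice without and with PBMT.

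Ppargc1b, the gene of PGC-1beta, had 6.93, 7.85 and 14.1 CPM in the lowest, median and highest sedentary control and 4.91, 6.66 and 7.64 CPM in the fatigued controls. Of the 6 fatigued controls 4 lay below the lowest sedentary control. It fell by 0.47 on the log2 scale (SE 0.149, edgeR adjusted p = 0.0286). The highest value, 14.1 CPM, belonged to sedentary control replicate 4, and without that mouse the fall was 0.29 with an adjusted p of 0.0826, so that the call rested on it. The call was also lost without fatigued control replicate 3 (adjusted p = 0.0747), fatigued control replicate 4 (0.0649) or sedentary control replicate 3 (0.0547), with the replicate number as a block (0.0557) and in a fit of only the 12 mice compared (0.0689), and over all 18 alternatives adjusted p ran from 0.0183 to 0.0826. In these 5 fits the log2 fold change was -0.39, -0.42, -0.45, -0.45 and -0.46, closer to that of all mice than the value without sedentary control replicate 4. In PBMT-treated mice Ppargc1b fell by 0.44 (SE 0.150, edgeR adjusted p = 0.0290), with 4 of 6 fatigued mice below the lowest sedentary mouse, and 5 of the 12 mice could each end the call when left out. Adjusted p was 0.0710 without fatigued PBMT replicate 1, 0.0537 without fatigued PBMT replicate 5, and 0.0674, 0.0530 and 0.0592 without sedentary PBMT replicates 1, 3 and 5, and over all 18 alternatives it ran from 0.0103 to 0.0710. The log2 fold changes without these 5 mice were -0.38, -0.43, -0.40, -0.43 and -0.42.

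Pprc1 encodes PRC, the third coactivator of the family, known as an early gene of growth stimulation. Its medians were 11.7 CPM in sedentary controls and 15.6 CPM in fatigued controls, with a log2 fold change of 0.29 (SE 0.103) that missed the threshold (edgeR adjusted p = 0.0507). It passed without sedentary control replicate 4 (0.37, adjusted p = 0.00676), without fatigued control replicate 3 (0.37, adjusted p = 0.0103), with the size factors of DESeq2 (adjusted p = 0.0447) and with DESeq2 itself (adjusted p = 0.0350), over a range of 0.00676 to 0.154 in 18 alternatives. In PBMT-treated mice it rose by 0.33 (SE 0.103, edgeR adjusted p = 0.0193), from a median of 11.5 CPM to 14.6 CPM, with 5 of 6 fatigued mice above the highest sedentary mouse. After correction for transcript length the log2 fold change was 0.26 and that adjusted p was 0.0713, the highest of 18 alternatives (lowest 0.00612). The rise was not shown to differ between PBMT-treated and control mice (difference 0.04, edgeR adjusted p = 0.976).

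The estrogen-related receptors share a DNA-binding motif and are partners of PGC-1alpha on genes of oxidative metabolism. None of the 3 receptor genes passed the test in either comparison. Esrra had means of 121 ± 35.0 CPM in sedentary and 100 ± 6.87 CPM in fatigued controls (SD, n = 6 each), with a log2 fold change of -0.26 (SE 0.119, edgeR adjusted p = 0.123). Sedentary control replicate 4 held 190 CPM of Esrra and the other 5 sedentary controls 99.0 to 121 CPM, and without that mouse the log2 fold change was -0.09 (adjusted p = 0.430, in a range of 0.0754 to 0.430 over 18 alternatives). Esrrb, the least abundant of the 10 genes per kilobase, had 4.34 ± 0.941 CPM in sedentary and 3.32 ± 1.23 CPM in fatigued controls. Its log2 fold change of -0.39 (SE 0.226, edgeR adjusted p = 0.247) became -0.61 (adjusted p = 0.0470) without fatigued control replicate 5, the highest mouse of its group, and adjusted p ran from 0.0470 to 0.443 over 18 alternatives. Esrrg had 21.3 ± 2.69 CPM in sedentary and 19.8 ± 7.32 CPM in fatigued controls, where replicate 5 held 34.0 CPM. Its log2 fold change of -0.11 (edgeR adjusted p = 0.740) became -0.33 without that mouse (adjusted p = 0.155, in a range of 0.155 to 0.957 over 18 alternatives). In PBMT-treated mice the log2 fold changes were -0.09 for Esrra, -0.13 for Esrrb and -0.22 for Esrrg, with edgeR adjusted p from 0.421 to 0.718. Over 18 alternatives they ran from -0.17 to -0.05, from -0.26 to -0.03 and from -0.31 to -0.14.

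Nrf1, a transcription factor gene whose product binds promoters of respiratory chain genes, had nearly the same level in all groups, from 10.2 to 10.6 CPM in the group means. Its log2 fold change in controls was -0.03 (95% interval -0.20 to 0.14) and in PBMT-treated mice -0.06 (95% interval -0.23 to 0.11). The value in controls was 0.04 without sedentary control replicate 4 (edgeR adjusted p = 0.687). Gabpa encodes the DNA-binding subunit of GABP, also called nuclear respiratory factor 2. In PBMT-treated mice Gabpa had 30.8, 34.0 and 35.3 CPM in the lowest, median and highest sedentary mouse and 23.3, 26.6 and 30.1 CPM in the fatigued mice. All 6 fatigued mice lay below every sedentary mouse, and Gabpa fell by 0.33 on the log2 scale (SE 0.0774, edgeR adjusted p = 0.00288). In controls its log2 fold change of -0.20 (SE 0.0774) missed the threshold (edgeR adjusted p = 0.0699). It passed there without sedentary control replicate 4 (-0.26, adjusted p = 0.00863) and with the length correction (-0.26, adjusted p = 0.0299), and adjusted p ran from 0.00863 to 0.193 over 18 alternatives. The fall was not shown to differ between PBMT-treated and control mice (difference -0.12, edgeR adjusted p = 0.946).

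Tfam encodes the protein that packages mitochondrial DNA and starts its transcription. Sedentary controls had 45.5, 49.9 and 52.9 CPM in the lowest, median and highest mouse, and fatigued controls 41.6, 42.4 and 42.8 CPM. All 6 fatigued controls lay below every sedentary control, and Tfam fell by 0.23 on the log2 scale (SE 0.0479, edgeR adjusted p = 0.00154). With PBMT, sedentary mice had 47.7, 48.6 and 50.5 CPM and fatigued mice 37.7, 40.5 and 43.2 CPM, again without overlap, and Tfam fell by 0.27 (SE 0.0479, edgeR adjusted p = 1.52e-04). Tfb2m encodes a transcription factor of the mitochondrial RNA polymerase. It had medians of 46.5 CPM in sedentary and 39.2 CPM in fatigued controls and fell by 0.25 (SE 0.0680, edgeR adjusted p = 0.0106), with 3 of 6 fatigued controls below the lowest sedentary control. In PBMT-treated mice its medians were 46.2 and 38.8 CPM and it fell by 0.25 (SE 0.0680, edgeR adjusted p = 0.00779), with 4 of 6 fatigued mice below the lowest sedentary mouse.

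**Figure D2:**
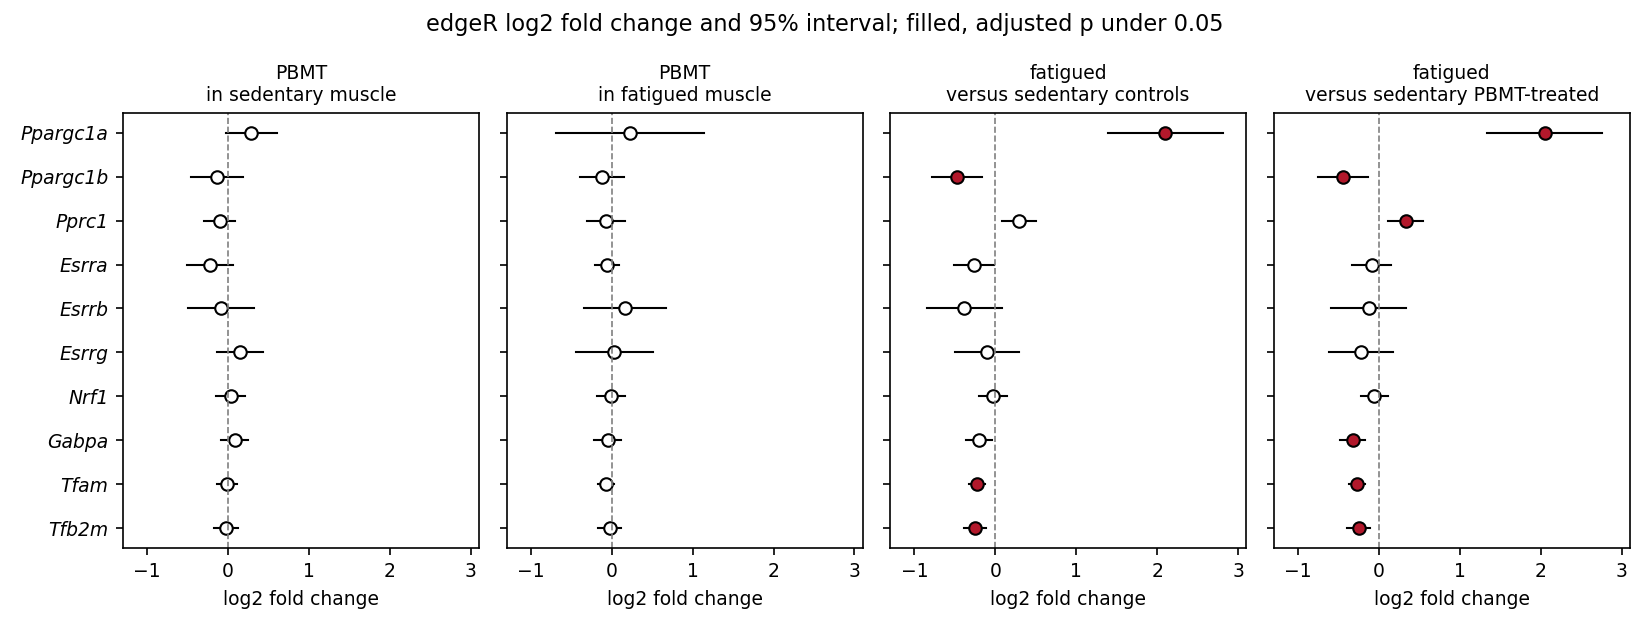
Log2 fold change of each of the 10 genes in 4 comparisons (point) with its 95% interval (line), from edgeR; filled points have an adjusted p under 0.05. The interval of Ppargc1a lies above 1 on the log2 scale in both comparisons of fatigued with sedentary muscle, and the intervals of all 10 genes include 0 in both comparisons of PBMT with control.

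Of the 10 genes, 4 passed the test in controls, where 18.6% of the 15108 genes tested did. A single gene was higher (9.1% of all genes) and 3 were lower (9.49% of all genes). In PBMT-treated mice 6 of the 10 passed, against 26.8% of all genes, with 2 higher (14.1% of all genes) and 4 lower (12.7% of all genes). The groups did not overlap for 2 of the 10 genes in controls, Ppargc1a and Tfam, against 7.7% of all genes tested, and for 2 in PBMT-treated mice, Gabpa and Tfam, against 11.2%. The median log2 fold change of the 10 genes was -0.21 in controls and -0.17 in PBMT-treated mice, and that of all genes was -0.01 and 0.00. All 10 genes passed the filter on low counts in each comparison.

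Whether PBMT changed these genes in sedentary muscle was tested within the sedentary project. None of the 10 genes passed the test in edgeR, 4 having a log2 fold change above 0 and 6 below. The median of the 10 was -0.02, and 0.02 without sedentary control replicate 4. In that fit Ppargc1b (0.04) and Esrrb (0.01) lay above 0 instead of below. Over all 14177 genes tested, 0.0282% passed in edgeR, which is 4 genes, while 1082 had an unadjusted p under 0.05 and DESeq2 called 60. That count of 4 was 20 without sedentary PBMT replicate 5, 18 without sedentary control replicate 4, 10 and 7 without sedentary PBMT replicates 2 and 4, and 2 without each of sedentary control replicates 1, 2 and 6. The smallest p among the 10 belonged to Ppargc1a, which was 1.22-fold higher with PBMT (95% interval 0.978 to 1.51, edgeR adjusted p = 0.665; exact permutation two-sided p = 0.201). With PBMT, 2 of 6 mice exceeded the highest control and 1 lay below the lowest. Esrra had a log2 fold change of -0.22 (SE 0.135, edgeR adjusted p = 0.683), and of -0.05 without sedentary control replicate 4 (adjusted p = 0.837, in a range of 0.459 to 0.881 over 18 alternatives). For Tfam the 95% interval of the fold change ran from 0.909 to 1.07, for Tfb2m from 0.885 to 1.09 and for Nrf1 from 0.901 to 1.16. The groups overlapped in all 10 genes, and did not in 0.48% of all genes tested.

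In fatigued muscle, where PBMT and the length of the run cannot be told apart, none of the 10 genes passed the test in edgeR either. Across the 14574 genes tested 0% passed in edgeR, 230 had an unadjusted p under 0.05 and DESeq2 called 2. Ppargc1a was 1.17-fold higher with PBMT, with a 95% interval from 0.622 to 2.197 (log2 fold change 0.23, edgeR adjusted p = 1.00). Over 18 alternatives the log2 fold change ran from 0.03, without fatigued PBMT replicate 4, to 0.42, without fatigued control replicate 5. The wide interval goes with the spread within both groups, and 1 of 6 mice with PBMT exceeded the highest control and none lay below the lowest. Tfam was lower in 5 of the 6 PBMT-treated mice than in any control, with replicate 1 above every control. Its log2 fold change was -0.07 (SE 0.0471, edgeR adjusted p = 1.00; exact permutation two-sided p = 0.0455, not adjusted for the 10 genes and both comparisons). The groups overlapped in all 10 genes, and did not in 0.0274% of all genes tested.

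The test of whether the effect of PBMT differed by exercise state called none of the 10 genes, against 0.00662% of the 15108 genes, which is 1 gene, with 665 at an unadjusted p under 0.05 and 1 called by DESeq2. Without sedentary PBMT replicate 2 it called 3 genes. The differences ranged from -0.12 for Gabpa to 0.26 for Esrrb on the log2 scale. For Ppargc1a the difference was -0.05, with a 95% interval from -1.02 to 0.91. These comparisons share their control mice with those of fatigued and sedentary muscle.

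Correlations among mice of the same group were computed for the 10 genes. With the group means subtracted, 7 of the 45 pairs passed a permutation test within groups over the 24 mice (Benjamini-Hochberg adjusted over the 45 pairs), and all 7 correlations were positive. An r of at least 0.56, the lowest of the 7, was reached by 8 of the 45 pairs (17.8%) and by 4.67% of all pairs of the 10505 genes with a mean log2 CPM of at least 1. Ppargc1b correlated with Esrra (r = 0.78, permutation p = 0.00107, adjusted p = 0.00963; Spearman correlation 0.63, permutation p = 0.00169), and r was 0.94 in the sedentary project (permutation p = 0.0027) and 0.42 in the fatigued project, where it did not pass (permutation p = 0.191). Sedentary control replicate 4 was high in both genes, and r was 0.61 without it and 0.63 without the 2 mice farthest from the median of Ppargc1b. Ppargc1b also correlated with Pprc1 (r = 0.73, permutation p = 7e-04, adjusted p = 0.00963; Spearman correlation 0.74, permutation p = 2e-04) and with Esrrb (r = 0.56, permutation p = 0.0028, adjusted p = 0.0180; Spearman correlation 0.57, permutation p = 0.00696). Within the sedentary and fatigued projects r was 0.87 and 0.66 for Pprc1 (permutation p = 0.0076 and 0.0308) and 0.60 and 0.55 for Esrrb (permutation p = 0.0202 and 0.0837), and without the 2 farthest mice it was 0.57 and 0.52.

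Esrrb and Esrrg, receptor genes on chromosomes 12 and 1, had r = 0.74 (permutation p = 8.9e-04, adjusted p = 0.00963; Spearman correlation 0.65, permutation p = 0.00249). It passed in the fatigued project (r = 0.95, permutation p = 1.5e-04) and did not in the sedentary project (r = 0.42, permutation p = 0.260), a difference that was not tested, and r was 0.57 without the 2 farthest mice. Esrra and Esrrb had r = 0.62 (permutation p = 3.3e-04, adjusted p = 0.00833; Spearman correlation 0.71, permutation p = 2.3e-04), with 0.73 and 0.58 in the sedentary and fatigued projects (permutation p = 9.9e-04 and 0.0579) and 0.59 without the 2 farthest mice. Gabpa and Tfb2m, both lower in fatigued PBMT-treated muscle, had r = 0.71 (permutation p = 3.7e-04, adjusted p = 0.00833; Spearman correlation 0.69, permutation p = 8.3e-04), with 0.89 and 0.56 within the projects (permutation p = 5e-05 and 0.0745) and 0.55 without the 2 farthest mice.

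Ppargc1a and Pprc1 were correlated with r = 0.69 over the 24 mice (permutation p = 0.0013, adjusted p = 0.00975; Spearman correlation 0.62, permutation p = 0.00222). Within the fatigued project r was 0.93 (permutation p = 2e-04), and within the sedentary project it was -0.08 (permutation p = 0.759), and the difference between the projects was not tested. Fatigued control replicate 3 and fatigued PBMT replicate 2 were the lowest of their groups in both genes, and without these 2 mice r was 0.42 (permutation p = 0.0420), so that much of the relation rested on them. Without sedentary control replicate 4, the lowest sedentary control in Ppargc1a and the highest in Pprc1, r over the mice of both projects was 0.82. The r of -0.08 within the sedentary project includes that mouse, and r there without it was not computed. Ppargc1a and Ppargc1b had r = 0.32 (permutation p = 0.0949, adjusted p = 0.264), and r was 0.49 without sedentary control replicate 4. Their Spearman correlation was 0.50 (permutation p = 0.0194, adjusted p = 0.106).

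**Figure D3:**
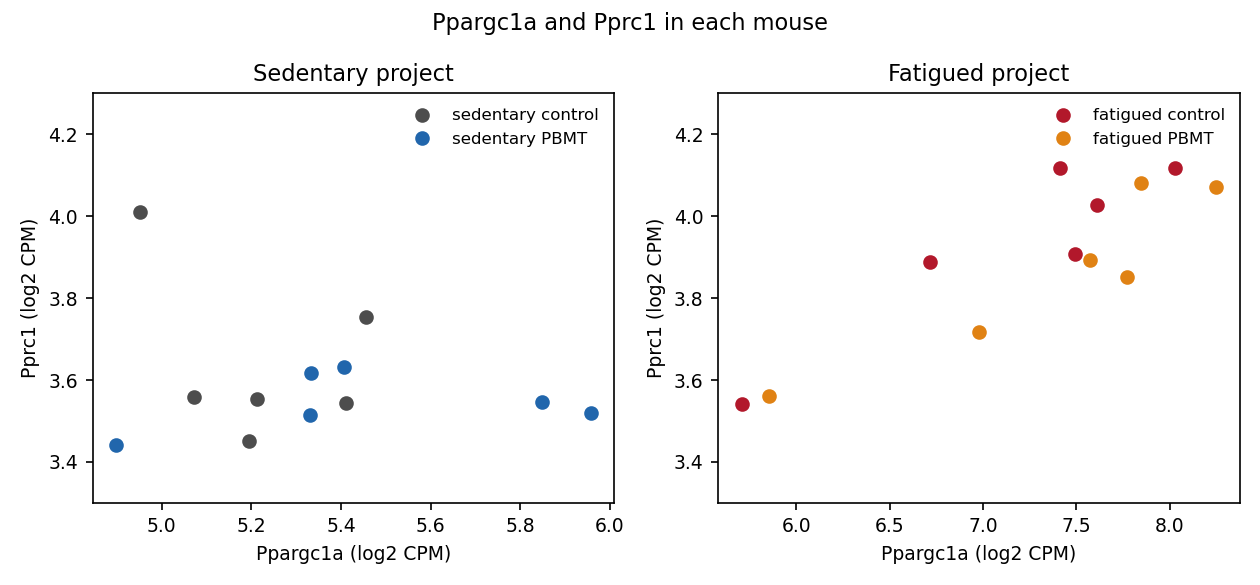
Log2 CPM of Ppargc1a (horizontal axis) and Pprc1 (vertical axis) in each mouse, with the 12 sedentary mice on the left and the 12 fatigued mice on the right; the horizontal scales differ. The points of the fatigued mice follow a line (r = 0.93 of the deviations from the group means). Those of the sedentary mice do not (r = -0.08), with sedentary control replicate 4 included. That mouse was the lowest sedentary control in Ppargc1a and the highest in Pprc1.

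The genes whose deviations from the group means were most like those of Ppargc1a over the 24 mice, among 10504 genes with a mean log2 CPM of at least 1, were Srsf7 (r = 0.86), Gpr157 (r = 0.86), Ankrd33b (r = 0.85), Ubac2 (r = 0.81) and Arhgap26 (r = 0.80). These values are a description of the highest correlations found and carry no test. In the fatigued project r was between 0.87 and 0.97 for these 5 genes, and in the sedentary project between 0.19 and 0.58. Arhgap26, which encodes a GTPase-activating protein, had 3.50 CPM in sedentary controls and 17.2 CPM in fatigued controls, while Srsf7, a splicing factor gene, had 15.6 and 16.1 CPM. Pprc1 stood at place 56 of the 10504 genes in this order, Esrrg at 424, Nrf1 at 4486 and Gabpa at 6427.

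Genes around the 10 were counted in lists by role, and no gene in them passed in either comparison of PBMT with control or in the test of their difference, except the early response gene Egr1 with PBMT in sedentary muscle (2.98, SE 0.383, edgeR adjusted p = 0.0139), where it had 1.69 to 3.25 CPM in controls and 6.01 to 33.9 CPM with PBMT. Without sedentary control replicate 4 its log2 fold change was 2.91 and its adjusted p 0.0616. Kinases, phosphatases and transcription factors that act upstream of PGC-1alpha, 27 tested, showed 2 genes higher and 2 lower in fatigued controls, near the shares over all genes (9.1% and 9.49%). Hdac4, a histone deacetylase gene (0.38, SE 0.117, edgeR adjusted p = 0.0248), and Camk2a, a calcium-dependent kinase gene (0.25, adjusted p = 0.0187), rose, and the CREB coactivator gene Crtc3 (-0.28, adjusted p = 0.0253) and the AMPK subunit gene Prkag1 (-0.20, adjusted p = 0.0307) fell. In PBMT-treated mice 1 was higher, again Hdac4 (0.74), and 8 were lower (over all genes 14.1% and 12.7%), led by the AMPK subunit gene Prkaa2, which fell by 0.52, Crtc3, by 0.39, and Atf2 and Mef2c, both by 0.34 on the log2 scale. The median of this list was -0.05 in controls, -0.08 there without sedentary control replicate 4, and -0.09 in PBMT-treated mice. Without sedentary control replicate 4, the calls in controls were 3 higher and 5 lower, and Crtc3 was not among them (-0.21, adjusted p = 0.0554). Without fatigued PBMT replicate 5 those in PBMT-treated mice were 2 higher and 6 lower, and Mef2c was not among them (-0.29, adjusted p = 0.0664), nor did it pass without fatigued PBMT replicate 1 (-0.32, adjusted p = 0.0566).

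Corepressors and modulators of PGC-1 and of the estrogen-related receptors had more calls higher than lower. Of 14 tested, 6 rose and 1 fell in fatigued controls (over all genes 9.1% and 9.49%), and 6 rose and none fell in PBMT-treated mice (over all genes 14.1% and 12.7%). Counting uncalled genes too, 10 were above 0 and 4 below in controls, and 7 above and 7 below in PBMT-treated mice. Nrip1, which encodes the nuclear receptor corepressor RIP140, rose from 36.5 ± 7.75 to 71.3 ± 18.03 CPM in controls (SD, n = 6 each; log2 fold change 0.97, SE 0.201, edgeR adjusted p = 0.00174) and by 1.14 in PBMT-treated mice (SE 0.202, adjusted p = 2.48e-04). Lpin1, the gene of a phosphatidate phosphatase that binds PGC-1alpha, rose by 0.65 and 0.68, and the coactivator gene Ncoa3 by 0.57 and 0.45, in controls and PBMT-treated mice. Prmt1, an arginine methyltransferase gene, fell by 0.22 in controls (adjusted p = 0.0281), and without sedentary control replicate 4 its log2 fold change was -0.17 (adjusted p = 0.0510). The median of the list was 0.16 in controls and 0.00 in PBMT-treated mice, or 0.04 without fatigued PBMT replicate 5. It was 0.06 without fatigued PBMT replicate 1, where 5 rose and none fell.

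Of 13 nuclear receptors and other partners of the respiratory factors, 4 were higher and 1 lower in fatigued controls (over all genes 9.1% and 9.49%), and 5 were higher and 2 lower in PBMT-treated mice (over all genes 14.1% and 12.7%). Ppara, the fatty acid sensing receptor gene, rose by 0.94 (SE 0.171, edgeR adjusted p = 4.11e-04) and 1.05 (SE 0.170, adjusted p = 7.4e-05), Myc by 0.84 and 1.20, Ppard by 0.42 and 0.46, and Pparg by 0.43 and 0.64. The thyroid hormone receptor gene Thra fell by 0.26 and 0.25. In PBMT-treated mice Max, the partner of Myc, was also higher (0.45), and the GABP subunit gene Gabpb2 lower (-0.30), a call lost without fatigued PBMT replicate 1 (-0.25, adjusted p = 0.0624) or sedentary PBMT replicate 4 (-0.28, adjusted p = 0.0501). The medians were 0.01 and 0.07, and the median in controls was 0.06 without sedentary control replicate 4.

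The machinery of mitochondrial DNA transcription and replication, 18 genes tested, had 1 gene higher and 3 lower in fatigued controls (over all genes 9.1% and 9.49%) and none higher and 5 lower in PBMT-treated mice (over all genes 14.1% and 12.7%). Tefm, the mitochondrial transcription elongation factor gene, fell by 0.36 (SE 0.0803, edgeR adjusted p = 0.00238) and 0.33 (SE 0.0805, adjusted p = 0.00388). Mterf2 fell by 0.55 and 0.42, and Ssbp1, the gene of the single-stranded DNA-binding protein of mitochondria, by 0.29 and 0.33. In controls Polg, the gene of the mitochondrial DNA polymerase, was higher (0.23, adjusted p = 0.0312), and in PBMT-treated mice Mterf3 was lower (-0.45, adjusted p = 8.77e-04). The medians were -0.05 in both, 0.00 in controls without sedentary control replicate 4 and -0.09 in PBMT-treated mice without fatigued PBMT replicate 5. Without sedentary control replicate 4 the calls in controls were 4 higher and 5 lower, and without fatigued PBMT replicate 5 they were none higher and 3 lower in PBMT-treated mice. Mterf2 did not pass there without fatigued PBMT replicate 5 (-0.42, adjusted p = 0.0791), fatigued PBMT replicate 1 (-0.39, adjusted p = 0.0961) or sedentary PBMT replicate 4 (-0.39, adjusted p = 0.105).

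Transcripts of mitochondrial DNA itself were lower in fatigued muscle. All 13 protein-coding ones had a log2 fold change below 0 in both comparisons, where 48.4% and 50.3% of all genes lay above 0, and 7 of the 13 passed as lower in each (over all genes 9.49% and 12.7%). The largest falls in controls were in mt-Atp8 (0.3535-fold, edgeR adjusted p = 3.56e-04), mt-Co3 (log2 fold change -1.31), mt-Nd3 (-1.15) and mt-Nd4l (-1.13), and in PBMT-treated mice mt-Atp8 fell by 1.40, mt-Co3 by 1.35, mt-Nd4l by 1.35 and mt-Nd3 by 1.19. In sedentary controls mt-Atp8, mt-Co3, mt-Nd3 and mt-Nd4l had means of only 1.86, 95.2, 52.6 and 34.6 CPM, a small part of the sum. The most abundant, mt-Co1, had 46315 ± 16605 CPM there and 37991 ± 2777 CPM in fatigued controls (SD, n = 6 each). It was not among the 7 called in PBMT-treated mice without fatigued PBMT replicate 1. The summed level was 105010 ± 7129 CPM in fatigued controls, 105220 ± 5088 CPM in fatigued PBMT and 146070 ± 13406 CPM in sedentary PBMT mice (SD, n = 6 each). Sedentary controls had 125900 ± 49563 CPM with replicate 4 at 25820 and the other 5 between 134410 and 153880 CPM. Without that mouse all 13 passed as lower in controls, and the median log2 fold change moved from -0.53 to -0.69. The median in PBMT-treated mice was -0.57. The libraries were made from poly(A)-selected RNA, so these sums count polyadenylated transcripts.

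**Figure D4:**
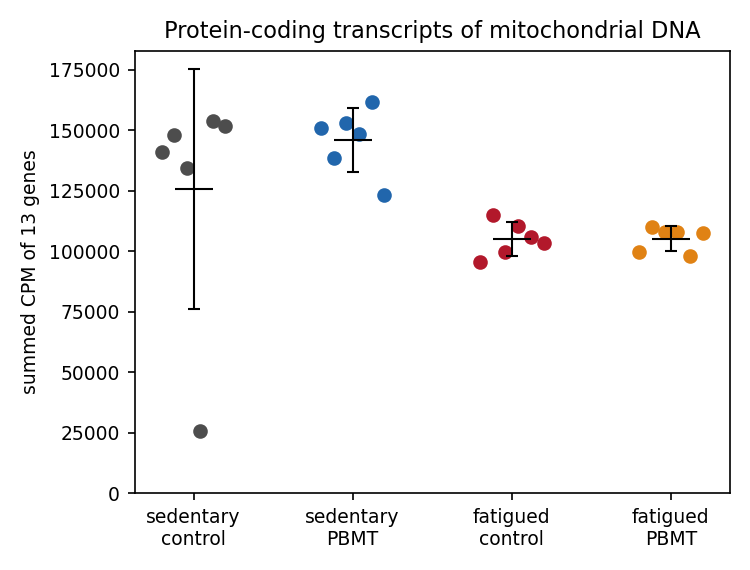
Summed CPM of the 13 protein-coding transcripts of mitochondrial DNA in each mouse (points, 6 per group), with the group mean (horizontal bar) and SD (error bar); the axis starts at 0. The fatigued mice lie between 95410 and 115040 CPM, and the sedentary mice between 123320 and 161860 CPM except control replicate 4 at 25820 CPM.

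Muscle genes known as targets of PGC-1 and the estrogen-related receptors were counted in the same way. Of 26 tested, 22 had a log2 fold change below 0 in controls and 20 in PBMT-treated mice, with medians of -0.15 and -0.13, while 48.4% and 50.3% of all genes lay above 0. The median in PBMT-treated mice was -0.08 without fatigued PBMT replicate 5. The calls were 1 higher and 4 lower in controls (over all genes 9.1% and 9.49%) and 3 higher and 1 lower in PBMT-treated mice (over all genes 14.1% and 12.7%). In controls Vegfa, the angiogenic growth factor gene, rose by 0.48 (SE 0.158, edgeR adjusted p = 0.0369), and Acadm, Sdhb, Cox5b and Slc25a4, genes of fatty acid oxidation, the respiratory chain and ADP transport, fell by 0.37, 0.35, 0.34 and 0.28. In PBMT-treated mice Ucp3 (1.18), Pdk4 (0.94) and Vegfa (0.53) were higher and Idh3a (-0.28) was lower. Without sedentary control replicate 4, 1 was higher and 9 were lower in controls. With PBMT against control, 22 of the 26 lay below 0 in sedentary muscle (median -0.09) and 21 in fatigued muscle (median -0.06). Over all genes 49.6% and 52.0% lay above 0 in these comparisons. The median for PBMT in fatigued muscle was -0.01 without fatigued PBMT replicate 5, and these tallies were not tested.

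Markers of fibers and of other cells were counted in both comparisons. Of 8 fast fiber markers, 4 were higher in fatigued controls, Myh4 (0.86), Tnnt3 (0.37), Acta1 (0.36) and Ckm (0.29), with 5 higher without sedentary control replicate 4 (over all genes 9.1% were higher), and 3 were higher in PBMT-treated mice (over all genes 14.1%), Myh4 (0.65), Acta1 (0.30) and Tnnt3 (0.26). Their sum was 163020 ± 13888 CPM in fatigued controls, 159940 ± 13701 CPM in fatigued PBMT and 129710 ± 10945 CPM in sedentary PBMT mice (SD, n = 6 each), with Myh4 the most abundant. Of the 7 slow or oxidative fiber markers, Myl3 fell by 0.75 in controls (edgeR adjusted p = 0.0283) and by 0.67 without sedentary control replicate 4 (adjusted p = 0.0502), and none passed in PBMT-treated mice. The log2 fold change was above 0 for 5 of the 7 in controls (median 0.43) and for 6 of the 7 in PBMT-treated mice (median 0.74). That last median was 0.40 without fatigued PBMT replicate 5 and 0.35 without fatigued PBMT replicate 1. Their sums were 708 ± 215, 654 ± 188 and 714 ± 139 CPM in the sedentary PBMT, fatigued control and fatigued PBMT groups. In bulk muscle, fewer cells of a type and less RNA per cell cannot be told apart.

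Over all genes 9.1% were higher in controls and 14.1% in PBMT-treated mice, a share to set beside each count of markers here. Of the 4 myeloid markers, Cd14 rose by 0.87 in controls and Cd14, Adgre1 and Cd68 rose by 1.70, 1.05 and 0.97 in PBMT-treated mice, where Cd14 alone passed without fatigued PBMT replicate 5 and Adgre1 did not pass without sedentary PBMT replicate 4 (0.96, adjusted p = 0.0941). Without sedentary control replicate 4 the rise of Cd14 in controls was 0.80 (adjusted p = 0.0704). The 4 summed to 43.8, 29.1, 46.0 and 48.7 CPM in the means of sedentary mice without and with PBMT and fatigued mice without and with PBMT, with Lyz2 the most abundant. The 3 endothelial markers, led by Cdh5, had 1 call, Pecam1 (0.40) in PBMT-treated mice, and sums from 200 to 246 CPM. Fmod, the most abundant of the 3 tendon markers, rose by 1.17 in PBMT-treated mice, a call lost without fatigued PBMT replicate 5 (0.62, adjusted p = 0.221), fatigued PBMT replicate 1 (1.20, adjusted p = 0.0525) or sedentary PBMT replicate 4 (1.21, adjusted p = 0.0572), and these markers summed to 86.3, 90.1, 162 and 195 CPM in the 4 groups. No erythrocyte (3 tested, led by Hbb-bs, 79.0 to 91.9 CPM) or adipocyte marker (5 tested, led by Cfd, 21.6 to 42.0 CPM) passed in either comparison. Ucp1, which defines brown adipocytes, was at 0 in all sedentary mice and fatigued controls, while Cidea rose by 1.33 in PBMT-treated mice where its group means were 0.706 CPM in sedentary and 1.79 CPM in fatigued mice. Fatigued PBMT replicate 1 held 4.12 CPM of Cidea, the highest value, and without that mouse the rise was 0.91 (adjusted p = 0.00786). Of the 5 keratinocyte markers only Krt10 passed the filter, falling by 1.52 in PBMT-treated mice and by 0.79 without sedentary PBMT replicate 4 (adjusted p = 0.0242), the mouse with the highest sum of the list at 26.6 CPM. The group means of that sum ran from 1.67 to 7.43 CPM. The part of these markers in the levels of the 10 genes was not tested.

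The 10 genes lie on chromosomes 1 (Esrrg, Tfb2m), 5 (Ppargc1a), 6 (Nrf1), 10 (Tfam), 12 (Esrrb), 16 (Gabpa), 18 (Ppargc1b) and 19 (Pprc1, Esrra) of GRCm38 in GENCODE M21. Ppargc1a spans 51454250 to 51567726 on the minus strand, Tfam 71225464 to 71238280 on the minus strand, Tfb2m 179528055 to 179546267 on the minus strand and Gabpa 84834925 to 84863779 on the plus strand. The miRNA gene Mir378a lies inside Ppargc1b. Exons of Gabpa share 397 bases with Atp5j, those of Pprc1 177 bases with Ldb1 and those of Esrra 73 bases with Trmt112, each on the opposite strand, and Esrra shares 91 bases with Mir6990 on its own strand. The strand setting of the authors' counting is not given in the sources used here, so part of the counts of Gabpa, Pprc1 and Esrra may belong to these neighbors.

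RefSeq promoter windows (GRCm38.p6, 250 bases before to 50 after the start) were at hand for 9 of the 10 genes, 14 windows in all, and the missing one was that of Ppargc1b. They were searched on both strands for an NRF1 site (GCGCATGCG, in 1.75% of all 32851 windows), an ETS site as bound by GABPA (CCGGAAG, 8.86%), an ERR half-site (AAGGTCA, 4.72%), a cAMP response element (TGACGTCA, 1.79%) and an E-box (CACGTG, 7.15%). There were 3 matches in the 14 windows, in the 3 genes Tfam, Tfb2m and Gabpa, a count read as a description beside the shares over all windows. Tfam held an ETS match from base 204 of its window on the plus strand of the gene, Gabpa an ETS match from base 158 on the opposite strand, and Tfb2m an NRF1 match from base 263 on the opposite strand. The windows of these 3 genes are shown because they hold the matches, and that of Ppargc1a because it rose most of the 10, with matches in capitals and each sequence 5′ to 3′ on the strand of its gene. They are chr10:71237995-71238294 (minus), chr1:179546227-179546526 (minus), chr16:84834874-84835173 (plus) and chr5:51567676-51567975 (minus).
Tfam: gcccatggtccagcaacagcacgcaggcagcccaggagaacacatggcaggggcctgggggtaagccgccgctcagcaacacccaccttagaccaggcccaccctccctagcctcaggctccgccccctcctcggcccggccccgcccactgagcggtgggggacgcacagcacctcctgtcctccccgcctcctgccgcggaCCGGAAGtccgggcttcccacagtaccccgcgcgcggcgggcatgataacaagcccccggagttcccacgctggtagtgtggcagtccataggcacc
Tfb2m: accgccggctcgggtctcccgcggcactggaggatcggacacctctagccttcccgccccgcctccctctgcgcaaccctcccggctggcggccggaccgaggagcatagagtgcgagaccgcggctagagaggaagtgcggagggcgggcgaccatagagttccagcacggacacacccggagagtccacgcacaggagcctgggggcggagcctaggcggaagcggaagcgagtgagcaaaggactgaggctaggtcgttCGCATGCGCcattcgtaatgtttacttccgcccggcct
Gabpa: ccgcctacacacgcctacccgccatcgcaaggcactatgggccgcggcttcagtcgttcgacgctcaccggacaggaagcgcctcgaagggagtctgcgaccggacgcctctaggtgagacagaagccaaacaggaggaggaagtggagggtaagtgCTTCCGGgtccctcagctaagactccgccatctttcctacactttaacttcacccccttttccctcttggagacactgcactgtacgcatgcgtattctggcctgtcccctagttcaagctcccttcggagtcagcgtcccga
Ppargc1a: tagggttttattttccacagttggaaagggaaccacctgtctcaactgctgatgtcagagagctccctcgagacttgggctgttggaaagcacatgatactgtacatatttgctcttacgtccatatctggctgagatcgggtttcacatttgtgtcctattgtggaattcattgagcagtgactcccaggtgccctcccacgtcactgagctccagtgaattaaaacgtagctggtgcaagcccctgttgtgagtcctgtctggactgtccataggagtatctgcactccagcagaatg
A match is a description of letters in a window and not of binding. None of the letters searched was in the window of Ppargc1a, which says only that. GC content was 70.3% in the window of Tfam, 67.3% in that of Tfb2m, 59.3% in that of Gabpa and 48.7% in that of Ppargc1a, and the median over all windows was 52.7%.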

How the data were processed

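RNA of the left TA of 24 mice was sequenced as poly(A)-selected, directional, paired-end libraries (RNA integrity numbers of at least 7.7, per the labels). The authors deposited whole-number counts per gene and mouse without normalization. Their processing notes name GRCm38, Trimmomatic, STAR 2.7.1a, Picard 2.20.4, StringTie 2.0.4, featureCounts 1.6.0 and HTSeq, without roles or settings. Groups and replicate numbers come from the sample titles. Of 55487 identifiers, 55227 matched GENCODE M21.

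Each PBMT comparison was fitted within its project (12 mice), and the other comparisons in a single fit of 24 mice, with edgeR 4.0.16 in R 4.3.3: filterByExpr (minimum count 10), TMM, robust quasi-likelihood tests, and p adjusted by Benjamini and Hochberg across every gene tested, with calls at 0.05. CPM were scaled by TMM over the 24 mice, with a prior count of 2 in log2 CPM. The procedure was tested on simulated data. Exact tests used every arrangement of 6 mice against 6, and correlations 100000 permutations within groups. Alternatives were no filter, DESeq2 size factors, DESeq2 1.42.0, a replicate block, a length correction (loess, span 0.3), another sample set and leaving out each mouse.

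For each comparison and list, no more than the 4 most raised and the 4 most lowered of the called genes are named, together with the 10 members and the 5 genes most like Ppargc1a. A called gene that this rule would name and 1 marker list are not reported here, and the gene is included in the counts and medians of its list. Lists covered upstream regulators of PGC-1alpha, corepressors and modulators, other receptor and respiratory factor partners, mitochondrial DNA transcription and replication, targets of PGC-1 and ERR, mitochondrially encoded genes, acute exercise genes, and markers of fast and slow fibers, adipocytes, brown adipocytes, keratinocytes, myeloid and endothelial cells, erythrocytes and tendon. The members and lists were chosen with earlier results of these data known. No pair of mice agreed within sampling noise (smallest chi-square per degree of freedom 10.9 over 276 pairs). Treadmill, lactate and microscopy data were not analysed here.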

Additional observations from a re-analysis of the deposited data

Results flagged for a closer look

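In 5 of the 40 combinations of a gene and a group of 6 mice, the highest mouse lay so far from the next that the gap, as a share of the range of the group, exceeded the critical value of Dixon at 95%. About 1 in 20 such groups, here 2, pass that limit by chance.

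Sedentary control replicate 4 accounted for 3 of the 5. It had 14.1 CPM of Ppargc1b against 6.93 to 8.97 CPM in the other 5 mice of its group, 190.3 CPM of Esrra against 99.0 to 121 CPM, and 13.1 CPM of Nrf1 against 9.72 to 10.3 CPM. The same mouse had the lowest sum of mitochondrially encoded transcripts, 25820 CPM. Without it the log2 fold change of Ppargc1b between fatigued and sedentary controls moved from -0.47 to -0.29.

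Fatigued control replicate 5 accounted for the other two. It had 5.72 CPM of Esrrb against 2.32 to 3.26 CPM in the other 5 fatigued controls, and 34.0 CPM of Esrrg against 14.6 to 20.5 CPM. It was also the highest fatigued control in Ppargc1a, at 261 CPM.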

How the results depend on the processing

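The calls of Ppargc1a, Tfam and Tfb2m between fatigued and sedentary muscle held in both comparisons under no filter, DESeq2 size factors, DESeq2, the replicate block, the length correction, the other sample set and without each mouse. Their log2 fold changes ran from 1.86 to 2.29 for Ppargc1a, from -0.35 to -0.21 for Tfam and from -0.32 to -0.21 for Tfb2m. The lowest count of the 10 genes was 116 for Esrrb. Where mice varied least, as for Tfam in fatigued controls (coefficient of variation 1.34%, counts 2370 to 2928), counting error is not small beside the spread. Fits of the gene lists without sedentary control replicate 4, fatigued PBMT replicates 1 and 5 or sedentary PBMT replicate 4, left out singly, and correlations without the first, were chosen after seeing the data.

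The sample titles give replicate numbers and no pairing of mice. Deviations of same-numbered mice correlated from -0.07 to 0.07 in the sedentary and from -0.08 to 0.33 in the fatigued project, where 4 of 6 pairs were above 0.1 and 3 of 6 mice matched their own number best. With the replicate number as a block, 11 genes were called for PBMT in sedentary muscle and 1 in fatigued muscle, against 4 and 0. Ppargc1b between fatigued and sedentary controls had an adjusted p of 0.0557 with the block and 0.0689 with only the 12 mice compared.

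For PBMT in sedentary muscle no filter gave 16 called genes, DESeq2 60, the length correction 12 and the fit of all 24 mice 1. Without each mouse in turn the count ran from 2 to 20, with 20 without sedentary PBMT replicate 5 and 18 without sedentary control replicate 4. In fatigued muscle DESeq2 gave 2. The difference of the PBMT effects had 0 calls with the length correction and 1 to 3 without each mouse.

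Over all genes tested, the Spearman correlation of log2 fold change with merged exon length was 0.30 for PBMT in sedentary muscle. It was -0.02 for PBMT in fatigued muscle and -0.23 for the difference of the PBMT effects. Between fatigued and sedentary muscle it was 0.21 in controls and 0.06 in PBMT-treated mice. Some fold changes of the 10 genes that had not passed the test changed sign, and the cause was not tested. With the length correction this was Nrf1 (-0.0388) and Tfb2m (0.0055) for PBMT in sedentary muscle, and Ppargc1b (-0.0044), Nrf1 (0.0242) and Tfb2m (-0.0386) for the difference of the PBMT effects. That difference was -0.0004 for Ppargc1b with the replicate block and -0.0083 for Tfb2m with no filter. Without each mouse, values for PBMT in sedentary muscle ran from -0.1962 to 0.0402 for Ppargc1b, -0.1818 to 0.0459 for Esrrb, -0.0368 to 0.001 for Tfam and -0.0675 to 0.0085 for Tfb2m. For PBMT in fatigued muscle they ran from -0.0694 to 0.2567 for Esrrg, -0.0532 to 0.0234 for Nrf1 and -0.0536 to 0.0212 for Tfb2m. For the difference of the PBMT effects they ran from -0.2511 to 0.1346 for Ppargc1a, -0.1619 to 0.0844 for Ppargc1b, -0.0435 to 0.0898 for Pprc1, -0.005 to 0.2235 for Esrra, -0.2199 to 0.1079 for Esrrg and -0.0351 to 0.0478 for Tfb2m. Between fatigued and sedentary controls Nrf1 ran from -0.0484 to 0.0445.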
